A study of Mus musculus with 2 samples.

Results

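Uroplakins are the membrane proteins that coat the luminal face of the urothelium, the epithelium lining the ureter and bladder. The tetraspanins UPK1A and UPK1B each pair with a single-pass partner, UPK1A with UPK2 and UPK1B with UPK3A or UPK3B, and the pairs leave the endoplasmic reticulum and assemble into the rigid plaques of the asymmetric unit membrane. The plaques lie in the apical membrane of superficial cells, also called umbrella cells, where they take part in the permeability barrier and give the surface its mechanical strength. Their genes are standard markers of terminal urothelial differentiation, and *Upk3b* is also known as a marker of mesothelium. Here the 5 uroplakin genes *Upk1a*, *Upk1b*, *Upk2*, *Upk3a* and *Upk3b* were picked by the gene name printed in the array files, from 29924 gene names with non-control probes.

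The samples were wildtype ureters of newborn (P0) NMRI mice kept on transwell membranes for 18 h in medium with 10% FCS, with 5 µM IWP-2 or with the solvent DMSO as control. IWP-2 blocks Porcupine, the acyltransferase that WNT ligands need before they can be secreted. Each of the 2 arrays set 1 control pool against 1 IWP-2 pool in 2 colours: replicate 1 was female with IWP-2 in the red channel, and replicate 2 was male with IWP-2 in the green channel. Sex, dye orientation and pool therefore change together and cannot be told apart, and the number of arrays limits the precision. Both arrays lay on 1 slide and were scanned in 1 run, and no spot was saturated. *Axin2*, a feedback inhibitor that WNT signalling switches on, was lower in IWP-2-treated ureters in both arrays, by 2.10 and 1.72 on the log2 scale (limma, adjusted p = 0.000824), and was called in 8 of 10 alternative fits. Of 10 WNT feedback genes and targets, 7 were bright enough to test and all 7 were called lower, beside 0.886% of all genes tested. Their median log2 ratio was -1.33.

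Every uroplakin was represented by 1 probe of 60 bases, printed on 4 spots per array. The probes are shown because each value below rests on a single one of them, and because members of a gene family can share sequence. The last 30 bases of each probe follow, 5′ to 3′, with the polyadenylation signal AATAAA in capitals where it occurs.

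Upk1a: gttggctggacacccAATAAAtactggctg

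Upk1b: gacgactctcattcctgtctatgtttaatg

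Upk2: ctcttaactgtacttaattctcacAATAAA

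Upk3a: aaatgacacacgactcacagatcacccagg

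Upk3b: tggctattaatgacagtcggctacctagcc

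The array files place the probes in the mouse build mm9. The *Upk1a* probe lies at chr7:31388111-31388170 and the *Upk1b* probe at chr16:38773859-38773918, both on the minus strand. The *Upk2* probe lies at chr9:44260822-44260881 on the minus strand, and its last bases are the polyadenylation signal itself. The *Upk3a* probe spans 902 bases of the genome, chr15:84851819-84852720 on the plus strand, for a length of 60 bases. The *Upk3b* probe lies at chr5:136520522-136520581 on the plus strand. No annotation of this build was used here, so exons and UTRs are not assigned. Over the 20 pairs of probes of different uroplakin genes, *Upk3bl* included, the longest run of bases that any pair had in common was 7.

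All 5 uroplakins had a higher signal in IWP-2-treated than in control ureters in both arrays, and none passed the test after adjustment. For *Upk3a* in replicate 2 the log2 ratio was only 0.0043, smaller than the SD of 0.0344 between its 4 spots. The mean log2 ratio of IWP-2 over control ranged from 0.12 for *Upk3a* to 0.36 for *Upk1a*, that is from 1.09-fold to 1.28-fold. All 5 passed the filter on low signals, a mean above 100 in at least 1 condition. The test asks whether the mean log2 ratio of the arrays differs from 0, with Benjamini-Hochberg adjustment over all genes. limma draws each gene's variance between these 2 arrays toward that of all genes fitted. Its p-values and intervals therefore rest partly on other genes, and they cover no variation beyond these 2 arrays. limma called 0 of 5 uroplakins at an adjusted p under 0.05, where 0.363% of the 14336 genes tested were called higher and 0.886% lower. At an unadjusted p under 0.05, 4 of 5 uroplakins were higher, beside 6.27% of all genes tested, and 6.64% of them were lower. That count was 0 of 5 when dim genes stayed in the fit and when only genes well above background in every channel were fitted. A ratio above 0 in both arrays was found for 5 of 5 uroplakins and for 25.7% of all genes, and a ratio below 0 in both for 29.1%. The genes mark the same cells, so the 5 values are not independent. In RNA from whole ureters, a change in the number of superficial cells and a change in RNA per cell cannot be told apart.

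**Figure D1:**
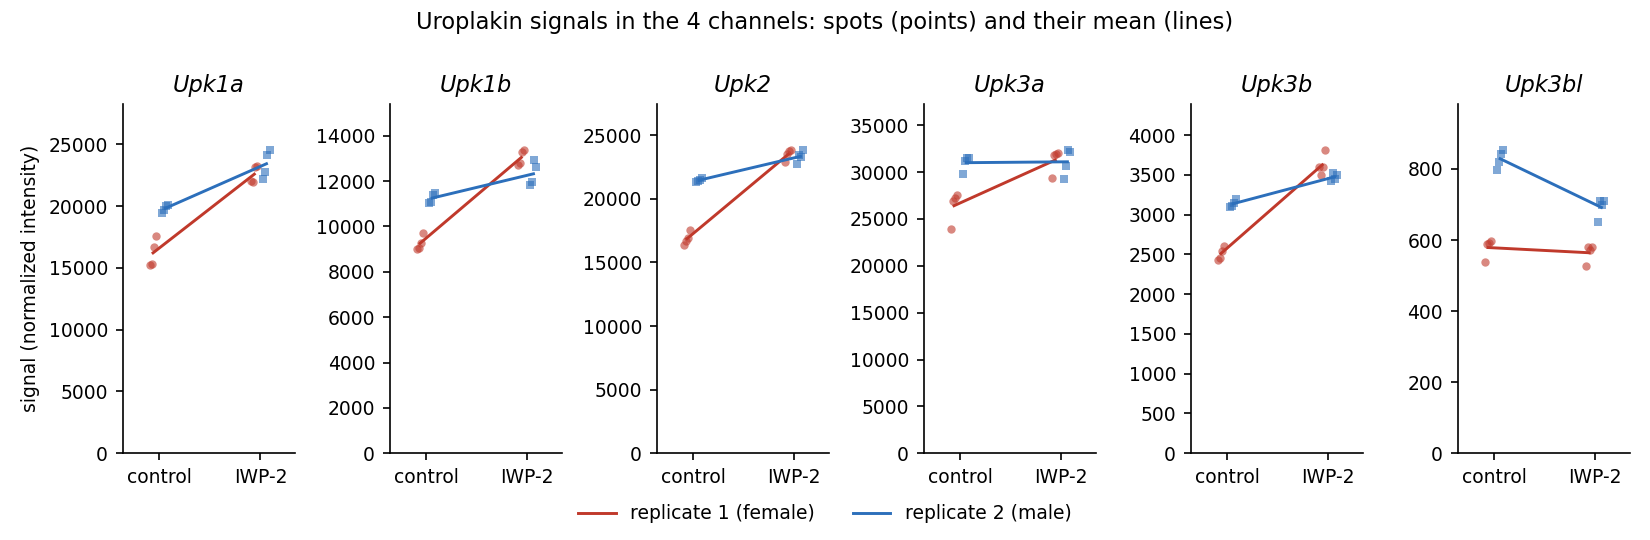
Normalized signal (linear axis from 0, own scale for each gene) of the 5 uroplakins and *Upk3bl* in control and IWP-2-treated ureters, with spots as points and lines joining the means of each array (red circles, replicate 1, female; blue squares, replicate 2, male). For the 5 uroplakins the treated mean lies above the control mean of its own array, with *Upk3a* nearly flat in replicate 2, whereas both lines of *Upk3bl* slope down.

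*Upk1a*, the partner of UPK2, had a signal of 16215 in control and 22585 in IWP-2-treated ureters of replicate 1, and of 19818 and 23427 in replicate 2. Both treated values lay above both control values, with the lower control in replicate 1. After quantile normalization between arrays, 14.3% of all genes had this pattern and 16.8% the reverse. The ratio was 1.39-fold in replicate 1 and 1.18-fold in replicate 2, with a mean log2 ratio of 0.36 (SE 0.081, 95% interval 0.17 to 0.55; limma, adjusted p = 0.117).

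*Upk1b*, the tetraspanin that carries UPK3A or UPK3B, had a signal of 9254 in control and 13038 in IWP-2-treated ureters of replicate 1. In replicate 2 the signals were 11248 and 12318. The treated value of replicate 1 was the highest of the 4. The mean log2 ratio was 0.31 (SE 0.0975, 95% interval 0.08 to 0.55; limma, adjusted p = 0.224).

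*Upk2*, whose product is matured by cleavage of a propeptide, had a signal of 16872 in control and 23508 in IWP-2-treated ureters of replicate 1. In replicate 2 the signals were 21471 and 23346. The treated pools nearly met each other, whereas the control pools lay apart. The mean log2 ratio was 0.30 (SE 0.0967, 95% interval 0.07 to 0.53; limma, adjusted p = 0.238).

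*Upk3a*, loss of which is known to disturb plaque formation, had a signal of 26406 in control and 31280 in IWP-2-treated ureters of replicate 1. In replicate 2 the signals were 30997 and 31090, a 1.00-fold ratio. The log2 ratio of replicate 2, 0.0043, was smaller than the SD of 0.0344 between its 4 spots. The mean log2 ratio was 0.12 (SE 0.0814) with an interval from -0.07 to 0.32 that includes 0 (limma, adjusted p = 0.703).

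*Upk3b*, the alternative partner of UPK1B, had a signal of 2512 in control and 3626 in IWP-2-treated ureters of replicate 1. In replicate 2 the signals were 3137 and 3475. The ratio of replicate 1, 1.44-fold, was the highest of any uroplakin in either array. The mean log2 ratio was 0.34 (SE 0.100, 95% interval 0.10 to 0.58; limma, adjusted p = 0.202).

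Among all genes tested, ordered from the highest mean ratio down, *Upk1a* stood at place 232, *Upk3b* at 257, *Upk1b* at 327, *Upk2* at 359 and *Upk3a* at 1582. None of the uroplakins reached 1.5-fold in either array. The filter that asks for a control signal above 100 and at least 1.5-fold in both arrays held 0 of 5 of them, and 0.0783% of 14051 genes in the higher direction.

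The spots of a probe repeat the hybridisation and not the biology. All 40 uroplakin spots were well above background and kept. In replicate 1, 20 of 20 spots had a log2 ratio above 0, and in replicate 2, 18 of 20. The 2 spots below 0 were of *Upk3a*. The SD between spots of a probe was 0.0218 to 0.0593 on the log2 scale.

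**Figure D2:**
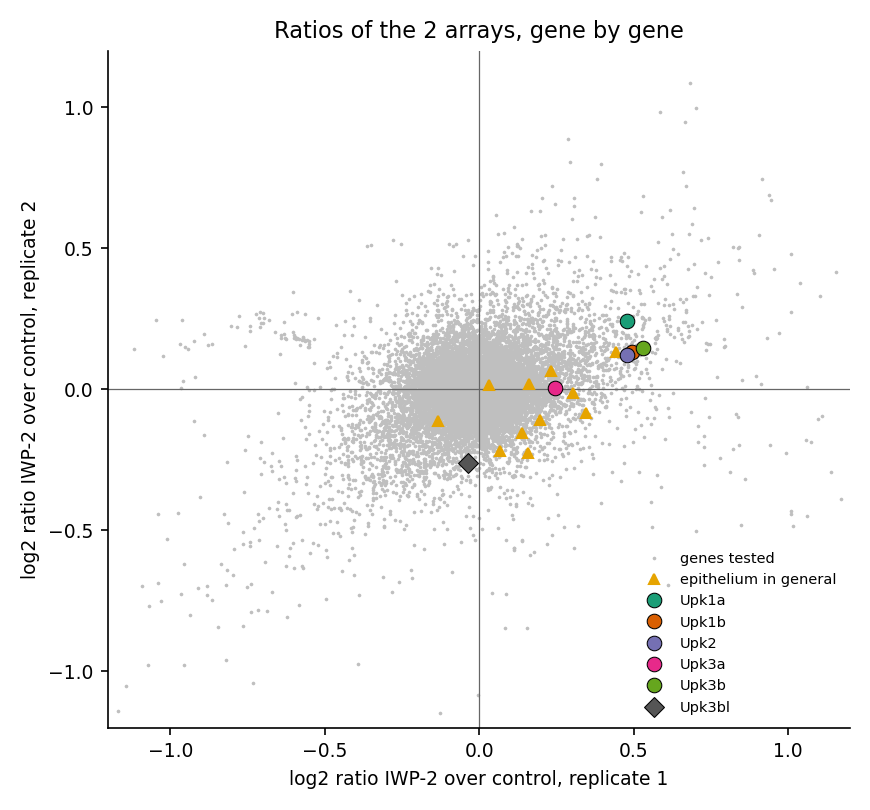
Log2 ratio of IWP-2 over control in replicate 1 (horizontal) against replicate 2 (vertical) for all genes tested (grey points, 44 of them outside the axes), with the uroplakins as circles, epithelial genes in general as triangles and *Upk3bl* as a diamond. The 5 uroplakins lie above 0 on both axes, farther along that of replicate 1, and *Upk3bl* lies below 0 on both.

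The arrays did not give the same size of difference. The log2 ratio of replicate 1 exceeded that of replicate 2 by 0.24 for *Upk1a*, 0.36 for *Upk1b*, 0.36 for *Upk2*, 0.24 for *Upk3a* and 0.38 for *Upk3b*. The median ratio of the 5 genes was 0.48 in replicate 1 and 0.13 in replicate 2, while that of all genes tested was -0.0042 and -0.0049. Over all genes, the SD of the difference between arrays was 0.208. With 1 array for each sex and dye orientation, this difference between the arrays was not tested.

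After quantile normalization of the mean intensities between arrays, the larger distance lay between the control channels. Control was green in replicate 1 and red in replicate 2, so pool, sex and dye cannot be told apart here. The control of replicate 2 was above that of replicate 1 by 0.27 for *Upk1a*, 0.26 for *Upk1b*, 0.32 for *Upk2*, 0.22 for *Upk3a* and 0.31 for *Upk3b* on the log2 scale. The treated channels differed by -0.11 for *Upk1b* to 0.03 for *Upk1a*, replicate 2 minus replicate 1. The median difference between the controls over all genes was -0.0147. The higher control of replicate 2 was not particular to the uroplakins. Before this normalization, every general epithelial gene tested had a higher control signal in replicate 2 than in replicate 1. *Krt18* had 22997 against 18318, *Krt7* 9056 against 7055 and *Cdh1* 6169 against 5155. On that scale *Upk1a* had 19818 against 16215, and the difference over all genes was not taken. The lower treated channel exceeded the higher control channel for 5 of 5 uroplakins, a pattern found in 14.3% of all genes, with the reverse pattern in 16.8%. The margin was 1.16-fold for *Upk1a*, 1.11-fold for *Upk3b*, 1.10-fold for *Upk1b*, 1.09-fold for *Upk2* and 1.00-fold for *Upk3a*, and that of *Upk3a* was smaller than the spread between spots.

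*Upk3bl*, the uroplakin 3b-like gene, is the neighbour of *Upk3b* on chromosome 5, with 0 annotated genes starting between them in GRCm38.p6. It was not among the 5 uroplakins picked, and its ratios were below 0. Its signal was 579 in control and 564 in IWP-2-treated ureters of replicate 1, and 829 and 692 in replicate 2. The treated value was below the control value of its own array in both replicates, and the groups overlapped. The mean log2 ratio was -0.15 (SE 0.0796, 95% interval -0.34 to 0.04; limma, adjusted p = 0.568), and a second probe gave -0.13. The difference between *Upk3bl* and the 5 uroplakins was not tested.

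The 200 bases before the start of both genes are shown because neighbours on 1 chromosome gave ratios of opposite sign. They were read from RefSeq promoters (GRCm38.p6), which held 3 of 5 uroplakins. The *Upk3b* window lies at chr5:136038296-136038495 and the *Upk3bl* window at chr5:136057067-136057266, both on the plus strand. Capitals mark matches to the motifs searched on both strands.

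Upk3b: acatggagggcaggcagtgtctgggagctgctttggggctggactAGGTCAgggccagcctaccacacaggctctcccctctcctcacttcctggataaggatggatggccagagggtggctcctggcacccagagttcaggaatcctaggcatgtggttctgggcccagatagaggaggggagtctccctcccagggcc

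Upk3bl: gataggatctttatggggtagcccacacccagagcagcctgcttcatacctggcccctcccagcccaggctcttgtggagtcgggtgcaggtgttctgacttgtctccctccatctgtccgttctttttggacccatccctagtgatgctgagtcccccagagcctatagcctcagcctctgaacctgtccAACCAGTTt

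The motifs were AGATAA for GATA factors, AACNNGTT for grainyhead-like factors, AGGTCA for nuclear receptors, GGGCGG for KLF and SP factors, CTTTGAT for TCF/LEF factors and TATAAA. The *Upk3b* window held 1 AGGTCA, which 11.4% of 32851 promoters hold. The *Upk3bl* window held 1 AACNNGTT, which 2.85% hold. The *Upk3a* window held AGATAA on the minus strand, present in 7.8% of promoters, and GGGCGG, present in 31.0%. The *Upk1a* window held none of the 6. CTTTGAT, which 2.45% of promoters hold, and TATAAA, which 9.96% hold, were in none of the 4 windows.

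The genes whose pattern over the 4 channels was most like that of the uroplakins were found by Euclidean distance to the median uroplakin pattern, after quantile normalization and centring of each gene. The nearest 5 were *Gm5469* at 0.0189, *Hcar1*, a lactate receptor, at 0.0278, *Fa2h*, an enzyme that hydroxylates fatty acids, at 0.0318, *Krt20* at 0.0320 and *Adssl1*, an enzyme of purine synthesis, at 0.0337. The uroplakins themselves lay at 0.0277 for *Upk2*, 0.0415 for *Upk3b*, 0.0586 for *Upk1b*, 0.0706 for *Upk1a* and 0.197 for *Upk3a*. In that order they held places 2, 12, 22, 34 and 420 among all genes tested. Of the 20 nearest genes other than uroplakins, 2 were on any of the gene lists described here, *Krt20* and *Krt7*. *Krt20*, the keratin of superficial cells, had a signal of 5878 and 8216 in control and IWP-2-treated ureters of replicate 1 and of 7243 and 8244 in replicate 2. Its mean log2 ratio was 0.33 (limma, adjusted p = 0.160).

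Genes that act with the uroplakins in superficial cells were taken from a list of 13, *Krt20* and *Upk3bl* included. limma called 0 of 13, and 3 were higher at an unadjusted p under 0.05, beside 6.27% of all genes tested. Ratios were above 0 in both arrays for 6 of 13 and below 0 in both for 1, *Upk3bl*. Over all genes these shares were 25.7% and 29.1%. Their median log2 ratio was 0.19 in replicate 1 and 0.03 in replicate 2, with 0.08 for the mean of both, against 0.31 for the uroplakins and -0.0060 for all genes tested. *Snx31*, a sorting nexin that binds uroplakins in endosomes, had a mean log2 ratio of 0.29 (limma, adjusted p = 0.316). *Rab27b*, a GTPase of the vesicles that bring plaques to the apical membrane, had 0.41 in replicate 1 and -0.03 in replicate 2. The SNARE gene *Vamp7* had a mean log2 ratio of -0.07, and *Myo5b*, a motor of apical vesicles, -0.08 (limma, adjusted p = 0.872 and 0.886).

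Of 10 urothelial transcription factors, 0 were called and 7 had ratios above 0 in both arrays, as 25.7% of all genes did. Ratios below 0 in both arrays were found for 0 of 10. Their median was 0.21 in replicate 1 and 0.09 in replicate 2, with 0.17 for the mean of both. *Elf3* (0.21 in replicate 1 and -0.08 in replicate 2) and *Klf5* (0.08 and -0.0082) had opposite signs in the arrays. The highest mean ratios of the 10 were those of *Grhl3* and *Pparg*. *Grhl3*, a factor of umbrella cell differentiation, had a mean log2 ratio of 0.39 (limma, adjusted p = 0.115; called in 1 of 12 alternative fits, normexp, at 0.0439), and *Pparg*, a nuclear receptor of the same programme, had 0.35 (limma, adjusted p = 0.109). Of 11 genes of basal and intermediate cells, the layers beneath the superficial cells, limma called 2 higher, beside 0.363% of all genes tested. Ratios were above 0 in both arrays for 8 of 11, beside 25.7% of all genes, and below 0 in both for 0. Their median was 0.24 in replicate 1 and 0.17 in replicate 2, with 0.16 for the mean of both. *Krt14* (0.37 in replicate 1 and -0.24 in replicate 2), *Krt17* (0.08 and -0.85) and *Wnt7b* (0.21 and -0.12) had opposite signs in the arrays. *Krt15*, a basal keratin, rose by 0.60 on the log2 scale (SE 0.0665; limma, adjusted p = 0.0153) and was called in 9 of 12 alternative fits. *Shh*, the ligand by which the urothelium signals to the mesenchyme, rose by 0.49 (SE 0.0773; limma, adjusted p = 0.0447) and was called in 6 of 12. The difference between these genes and the uroplakins was not tested.

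**Figure D3:**
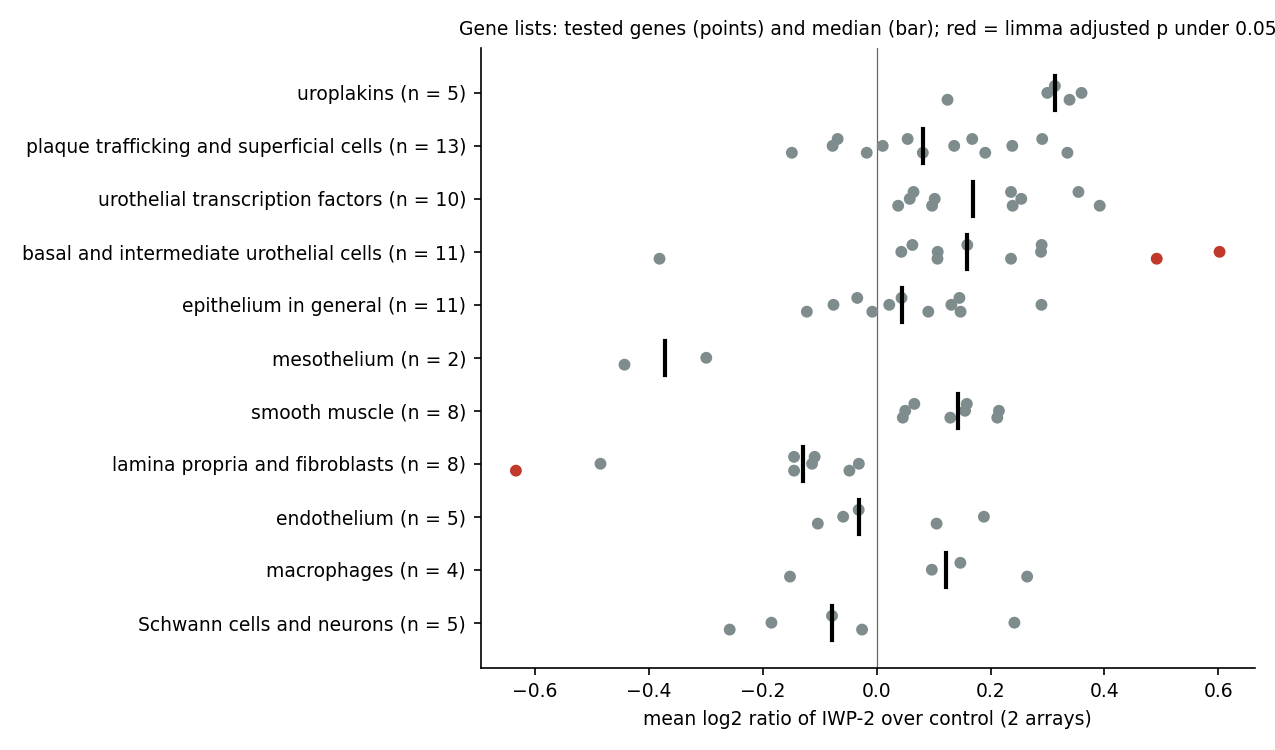
Mean log2 ratio of IWP-2 over control (horizontal) of the tested genes of 11 lists (points, red where limma's adjusted p is under 0.05) and the list's median (bar); the WNT feedback list, with 7 of 7 tested genes called lower, is not drawn. The uroplakin median lies at 0.31 with no red point, the epithelial median at 0.04, and the red points among the lists drawn are *Krt15* and *Shh* among basal and intermediate cells and *Aldh1a2* in the lamina propria.

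The labelled tissue was checked against markers of the cells it can hold. Without normalization between arrays, the summed signal of the uroplakins was 71258 and 86672 in the control pools and 93656 and 94037 in the treated pools. Epithelial genes in general, such as *Cdh1* and *Epcam*, summed to 88338 in the control and 102933 in the treated pool of replicate 1. In replicate 2 they summed to 106987 and 103493. Of 11 epithelial genes tested, 0 were called, with a median ratio of 0.16 in replicate 1 and -0.08 in replicate 2. The uroplakin median exceeded the epithelial median by 0.32 in replicate 1 and by 0.21 in replicate 2, as a description with no test. *Krt7*, a keratin of simple epithelia, had a mean log2 ratio of 0.29 (limma, adjusted p = 0.224) and *Cdh1* 0.04 (limma, adjusted p = 0.977).

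Mesothelial markers were read because *Upk3b* is also known as a marker of mesothelium. Of 6, 5 were on the array and 2 were bright enough to test. *Msln* had a mean log2 ratio of -0.44 (limma, adjusted p = 0.146) and *Wt1* one of -0.30 (limma, adjusted p = 0.267). *Bnc1* and *Lrrn4* were at the floor of 15 in every channel. The list summed to 859 in the control and 772 in the treated pool of replicate 1, and to 1155 and 791 in replicate 2. Of the 2 genes tested, 0 were called. Markers of renal tubule and glomerulus reached no more than 29.5 in any channel. Of 8 lamina propria genes, 1 was called, *Aldh1a2*, with a log2 ratio of -0.63 (limma, adjusted p = 0.028, called in 8 of 12 alternative fits). Over all genes tested, 0.886% were called lower. The lamina propria list summed to 146782 in the control and 124437 in the treated pool of replicate 1, and to 131388 and 131023 in replicate 2. Smooth muscle genes summed to 99138 in the control and 99136 in the treated pool of replicate 1. In replicate 2 they summed to 84586 and 99071, and 0 of 8 were called. The macrophage median was 0.13 in replicate 1 and 0.12 in replicate 2. The medians of endothelium (-0.13 and 0.14) and of Schwann cells and neurons (-0.14 and 0.01) lay on opposite sides of 0 in the arrays, and 0 genes were called in each of these lists. Their part in the uroplakin values was not tested.

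The uroplakin ratios were recomputed under 14 alternatives to the processing. In 6 of them the ratios could not move, since each gene has 1 bright probe and only the floor, the genes fitted or the handling of further probes changed, and 2 are the single arrays already given. In the 6 that recomputed the ratios, all 5 were above 0, and limma called 0 of 5 in each fit that gave a test. Among these 6, the fit with no replicate block used the ratios of the quantile normalization between arrays, so only its test differed from that setting.

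**Figure D4:**
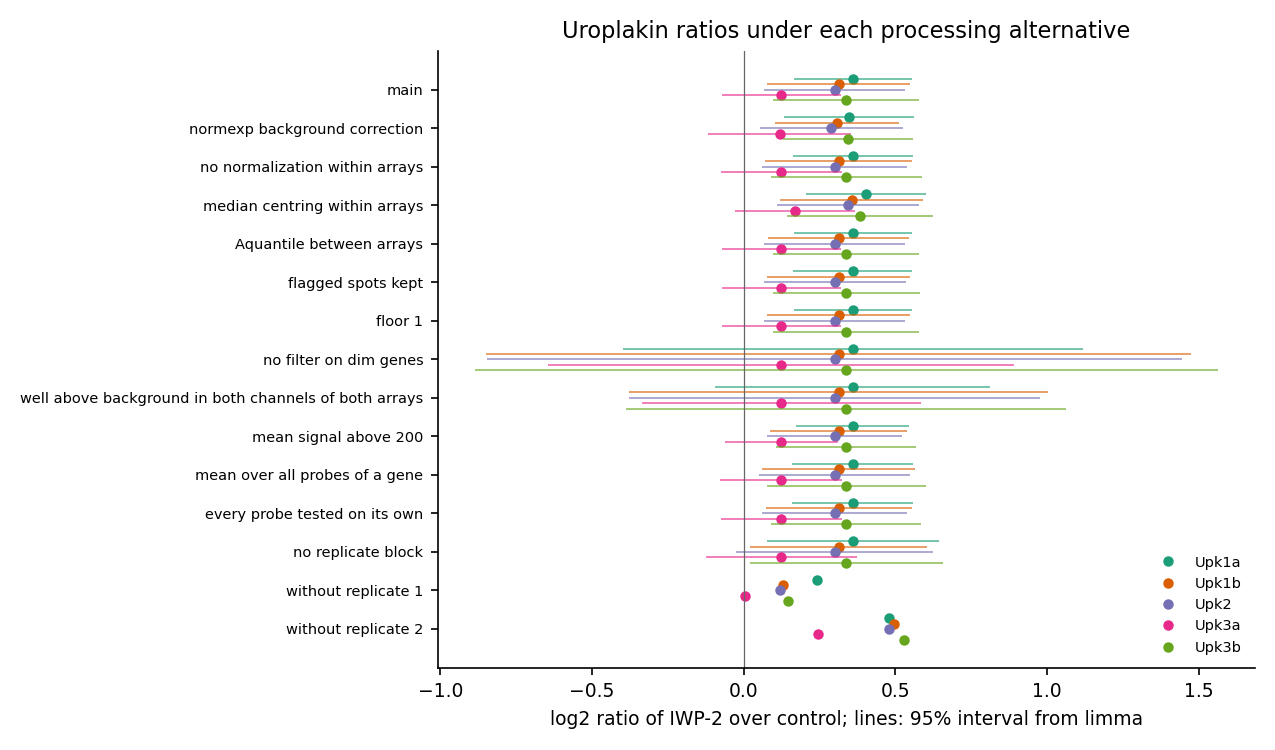
Log2 ratio of IWP-2 over control (horizontal) of each uroplakin under the main processing and each alternative, with 95% intervals from limma as lines; single arrays have none. All points lie above 0, and the lowest is *Upk3a* at 0.0043 without replicate 1.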

How the data were processed

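Total RNA of P0 ureters was labelled and hybridised to 2 Agilent arrays with swapped dyes. The deposited intensities are processed signals; the file headers name Feature Extraction 12.2.0.7, and the submitters' processing notes name version 10.7.3.1. The series table holds the authors' signed fold changes and was not used, and 0 other columns of per-sample values were used. Control spots (17263 per array) and flagged spots (3.32% and 3.22% of the rest) were left out. limma 3.58.1 under R 4.3.3 removed the trend of ratio with signal within each array (loess). The mean over each probe's spots was taken, values under 15 were set to 15, and log2 was applied. The brightest probe stood for its gene. Genes with a mean signal above 100 in either condition (14336) were tested with lmFit and eBayes. The fit leaves 1 residual degree of freedom per gene, and eBayes draws each variance toward that of all genes fitted. Control and treated pools of one number share sex and array and are paired within it by construction. Named were the uroplakins and, of each list but the WNT feedback list, the genes called and up to 4 others. Of the WNT feedback list only *Axin2* was named. The 5 genes of most similar pattern were also named, and *Upk3bl* was added for comparison. Members and lists were chosen with earlier results of these data known. Scripts were tested on simulated data.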

Additional observations from a re-analysis of the deposited data

Results flagged for a closer look

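Epithelial genes in general had a median log2 ratio of IWP-2 over control of 0.16 in replicate 1 (female) and of -0.08 in replicate 2 (male), so the list lay on opposite sides of 0 in the 2 arrays. The same held for the medians of endothelium (-0.13 in replicate 1 and 0.14 in replicate 2) and of Schwann cells and neurons (-0.14 and 0.01), and for the log2 ratios of *Rab27b* (0.41 and -0.03), *Myo5b* (0.060 and -0.21), *Vamp7* (-0.14 and 0.0030) and *Cdh1* (0.20 and -0.11). These differences were not tested, and sex and dye orientation cannot be told apart. The uroplakin median was above 0 in both arrays, at 0.48 and 0.13.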

How the results depend on the processing

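Of 14 alternatives, 6 left the log2 ratios of the uroplakins as they were by construction, 2 were single arrays and 6 recomputed the ratios. The ratios were above 0 in each, and limma called no uroplakin in those that gave a test. The fit with no replicate block and the quantile normalization between arrays shared the same ratios. The lowest and highest values were 0.24 and 0.48 for *Upk1a*, 0.13 and 0.49 for *Upk1b*, 0.12 and 0.48 for *Upk2*, 0.0043 and 0.24 for *Upk3a*, and 0.15 and 0.53 for *Upk3b*, each set by replicate 2 or replicate 1 on its own. Adjusted p went from 0.0854 up to 0.921 for *Upk1a*.

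The number of genes called, 179 (127 lower and 52 higher), was 427 with normexp (257 lower and 170 higher), 117 without normalization within arrays, 67 with the mean over all probes, and 0 both without the filter on dim genes (2028 at an unadjusted p under 0.05) and with the filter on signals well above background (1998). Median centring gave 108 lower and 85 higher. In the fit with no replicate block, which ignores the pairing within arrays, 8 genes and no uroplakin were called. *Krt15*, *Shh* and *Aldh1a2* were not called without the block or with either of those filters, and *Axin2* not with either filter. The genes past the fold filter (62) numbered 103 without replicate 1, 272 without replicate 2 and 19 at 2-fold.

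The median of the macrophage list (0.12) was 0.143 with normexp, 0.164 with median centring, 0.147 with either change of filter and 0.128 over every probe. That of the WNT feedback list (-1.33) was -1.05 with normexp, -1.10 with either change of filter, -0.80 with a signal above 200 or the mean over probes, -0.93 over every probe, and between -1.36 and -1.07 with 1 replicate left out. That of basal and intermediate cells (0.16) was 0.228 over every probe and between 0.17 and 0.24 with 1 replicate left out. That of mesothelium (-0.37) was -0.035 without the filter on dim genes, -0.23 with normexp and between -0.58 and -0.16 with 1 replicate left out. With 1 replicate left out, the medians lay between 0.03 and 0.19 for superficial cells, 0.09 and 0.21 for urothelial transcription factors, 0.0014 and 0.24 for smooth muscle, and -0.22 and -0.03 for lamina propria. Those of epithelium (-0.08 and 0.16), endothelium (-0.13 and 0.14) and Schwann cells and neurons (-0.14 and 0.01) changed sign. *Grhl3* was called with normexp. The causes were not tested. With 1 pool per channel, the number of arrays limits the precision.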
